A study of Mus musculus with 6 samples.

Results

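The MHC class I presentation genes were examined in the spleen RNA-seq libraries of WT and miR-144/451 KO mice. The set was chosen by name and holds 10 genes of the 44678 in the files: H2-K1, H2-D1, B2m, Tap1, Tap2, Tapbp, Psmb8, Psmb9, Psmb10 and Nlrc5. All 10 were found by their Ensembl identifiers, and all 10 were among the 13024 genes that passed the filter on low counts. None of them differed between KO and WT at an adjusted p-value under 0.05. The closest were Psmb10 and Psmb8, whose fitted levels in KO libraries were 0.824 and 0.837 times those in WT.

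There were 6 libraries, 3 of WT and 3 of KO mice, each made from CD8a+ leukocytes of the spleen, labelled as untreated. CD8a is carried by cytotoxic T cells and by a subset of splenic dendritic cells. The KO mice carry a germline deletion of a short segment that holds both microRNA precursors, on the C57BL/6J background, and the WT mice are C57BL/6J. The labels give no age, sex or pooling of the mice, and the study's methods give a single young adult age range for all its animals. The study's methods describe magnetic bead sorts of CD11c+ dendritic cells, of CD8+ T cells with Ly-2 (CD8a) beads and of CD4+ T cells, and do not say which, if any, gave these libraries. Its results introduce the sequencing with the question of whether the microRNAs repress the function of dendritic cells. Nothing states that each library came from a separate mouse, so p-values measure the spread between these libraries, which may be technical.

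MHC class I molecules show peptides from inside the cell to CD8+ T cells and are found on nearly all nucleated cells. Proteasomes cut proteins into peptides, the TAP transporter carries the peptides into the endoplasmic reticulum, and tapasin holds the transporter next to an empty heavy chain bound to beta-2-microglobulin. Leukocytes carry inducible catalytic subunits that take the place of constitutive ones in the immunoproteasome. The genes are induced by interferon, and the transactivator NLRC5 acts on the promoters of many of them.

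In GENCODE M21 on GRCm38, 7 of the 10 genes lie in the H2 complex, between 33915899 and 35267499 on chromosome 17. Psmb9, Tap1, Psmb8 and Tap2 are neighbors within 34335 bp of it (chr17:34181987-34216321). H2-K1 lies at chr17:33996017-34000347 and H2-D1 at chr17:35262730-35267499. Tapbp lies at chr17:33915899-33929292. Outside the complex, B2m lies at chr2:122147686-122153083, Psmb10 at chr8:105935735-105938444 and Nlrc5 at chr8:94434356-94527272. Mir144 and Mir451a lie on another chromosome, at chr11:78073005-78073070 and chr11:78073170-78073241.

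The mature strands of the deleted microRNAs are shown first because they define the contrast. The sequences are from RefSeq (GRCm38.p6), and the capitals mark the seed, bases 2 to 8.
miR-144-5p: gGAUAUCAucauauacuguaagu
miR-144-3p: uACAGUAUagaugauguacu
miR-451a: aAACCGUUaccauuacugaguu
The 3 strands have different seeds. Letters complementary to each seed were searched in the longest annotated 3′-UTR of each gene, which ran from 55 nt in Psmb10 to 1197 nt in Nlrc5 among the 10 genes. No member held UGAUAUC, the match to miR-144-5p, which was in 6.1% of 20998 UTRs, or AUACUGU, the match to miR-144-3p, which was in 11.9%. Psmb8 alone of the 10 held AACGGUU, the match to miR-451a, which was in 1.7% of all UTRs. It spans positions 173 to 179 of a 3′-UTR of 188 nt, with the match in capitals:
Psmb8: aauaaaagaaaAACGGUUauacauguc
A match is a description of letters and not a tested site. The fitted level of Psmb8 was lower in KO libraries, as given below.

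Mir144 and Mir451a had 0 counts in all 6 libraries, so these libraries do not show the deletion. Libraries held between 8143971 and 8876570 counts. Levels are given as CPM, the count of a gene relative to the library total and scaled with TMM factors between 0.9891 and 1.014, and 3 counts were worth between 0.338 and 0.368 CPM. The T cell gene Cd3e was present in every library. So was Cd8a, which T cells and a subset of dendritic cells carry, between 694 and 1041 CPM in WT and between 476 and 1030 in KO. B cell, macrophage and neutrophil markers were present too. The summed level of 9 B cell markers was 2916 CPM in WT1, 3067 in KO1 and 3309 in KO2, against 1733 in WT2, 1661 in WT3 and 1427 in KO3. The summed 8 T cell markers ran the other way, from 1850 to 2426 CPM in WT1, KO1 and KO2 and from 2899 to 3032 in WT2, WT3 and KO3. Fewer cells of a type and less RNA per cell cannot be told apart in such bulk libraries.

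The heavy chains and B2m were the most abundant of the 10 genes. Levels were compared between genes as CPM per kb of the longest coding transcript. In WT libraries H2-K1 reached 2210 ± 189 CPM per kb (SD, n = 3), B2m 2198 ± 267 and H2-D1 1250 ± 125. The ranges of H2-K1 and B2m overlapped, and both lay above H2-D1. The remaining 7 genes were far lower, from 184 ± 10.5 CPM per kb for Psmb8 to 54.9 ± 5.07 for Nlrc5. Between them lay Tapbp at 170 ± 19.7, Tap1 at 148 ± 6.13, Psmb9 at 120 ± 3.55, Psmb10 at 101 ± 3.38 and Tap2 at 92.5 ± 10.5. Among neighbors in this WT order the ranges of Psmb8 and Tapbp, Tapbp and Tap1, and Psmb10 and Tap2 overlapped. The KO order differed only in that Tapbp, at 163 ± 6.0 CPM per kb, stood above Psmb8, at 154 ± 10.5, with ranges that overlapped.

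**Figure D1:**
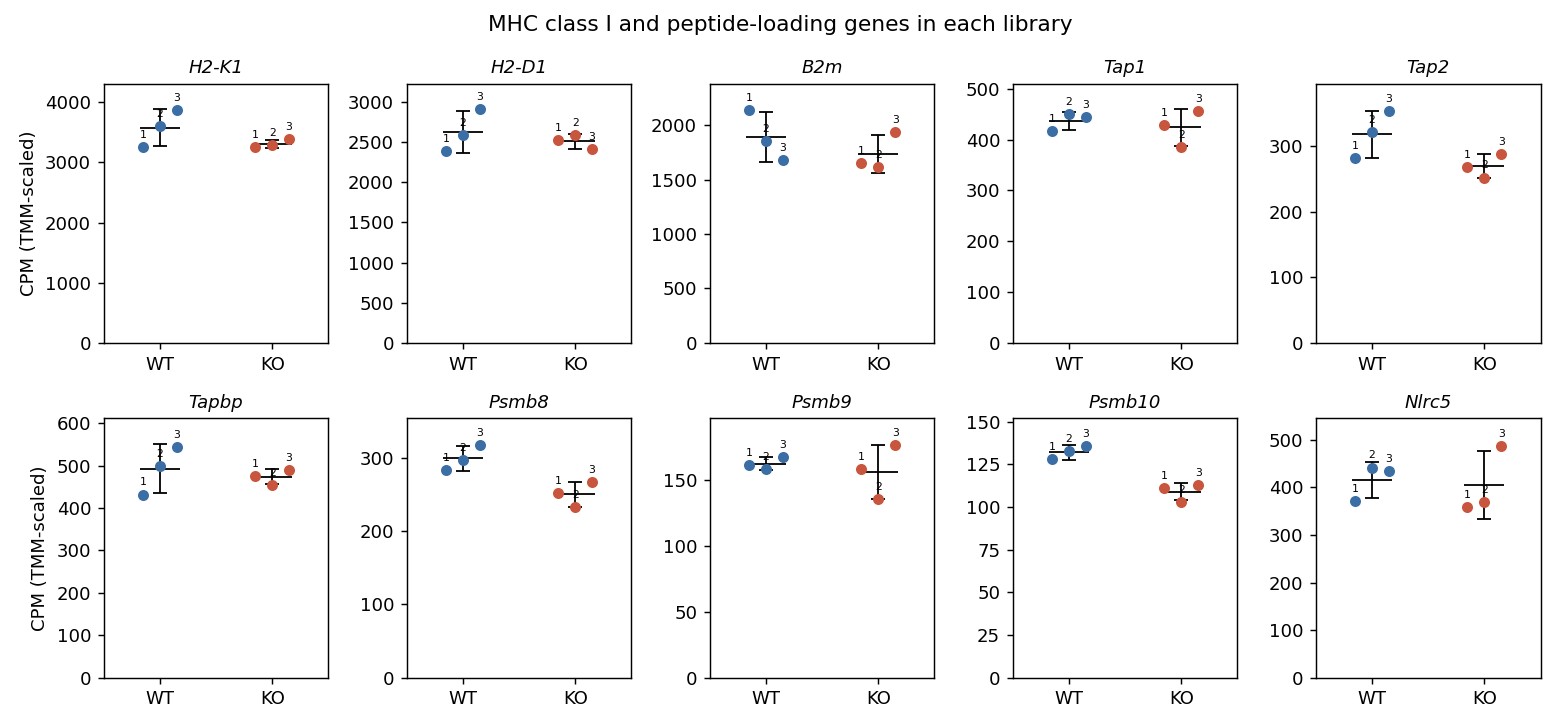
Level of each gene in CPM (vertical axes, each from 0) in the 3 WT and 3 KO libraries. Points are libraries with their numbers, and the bar and whiskers are the mean and SD. Only for Psmb8 and Psmb10 did all KO points lie below all WT points.

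H2-K1 and H2-D1 encode the classical heavy chains that bind peptide. H2-K1 (ENSMUSG00000061232) had 3260, 3603 and 3872 CPM in WT libraries 1 to 3 and 3259, 3292 and 3386 in KO libraries 1 to 3. All KO libraries lay near the lowest WT library, and the ranges overlapped. H2-D1 (ENSMUSG00000073411) had 2384, 2592 and 2905 CPM in WT and 2521, 2589 and 2408 in KO, so that the KO values lay inside the WT range. B2m (ENSMUSG00000060802), the light chain shared by all class I molecules, had 2137, 1853 and 1682 CPM in WT and 1650, 1620 and 1934 in KO. KO1 and KO2 were below all WT libraries, and KO3 was above WT2 and WT3.
The log2 fold change of KO against WT was -0.11 ± 0.10 (SE) for H2-K1 (adjusted p = 0.87, where every adjusted p is from the quasi-likelihood test of edgeR and was adjusted by Benjamini-Hochberg over all genes tested). It was -0.068 ± 0.11 for H2-D1 (edgeR adjusted p = 0.914) and -0.12 ± 0.12 for B2m (edgeR adjusted p = 0.875). The 95% intervals of the fold were 0.786 to 1.09 for H2-K1, 0.805 to 1.13 for H2-D1 and 0.752 to 1.12 for B2m. Of the 31-base words of H2-K1 and H2-D1, 22.8% and 26.7% were found in some other gene, and 11.1% and 13.8% in each other. Part of their reads could therefore have been divided by the authors' counting.

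H2-K1 and H2-D1 also share promoter letters, given here because they are the most alike of the members in sequence. Promoters were taken from RefSeq (GRCm38.p6) as 250 bases before to 50 after each start, on the strand of the gene, and 8 of the 10 genes had an entry. The longest run of letters in both promoters was 47 bases, at chr17:34000442-34000488 (minus strand) for H2-K1 and chr17:35262893-35262939 (plus strand) for H2-D1. It was in 3 of 32851 promoters, the 2 entries of H2-K1 and that of H2-D1. The letters TGACG, the core of the X2 box in class I promoters and of CRE elements, were in 20.8% of promoters and in those of 5 members, H2-K1, H2-D1, B2m, Tap1 and Psmb9. Tap1 and Psmb9 are divergent neighbors, and their match is the same bases, chr17:34187470-34187474, read from opposite strands.
H2-K1: tccggacactgtTGACGcgcagtcagctc
H2-D1: ccgggacactgaTGACGcgctggcaggtc
B2m: ctaggagactggTGACGacctccggatct
Tap1: cccagagacaggTGACGacagagggtcct
The capitals mark TGACG, and the windows are at chr17:34000384-34000388 for H2-K1, chr17:35262993-35262997 for H2-D1 and chr2:122147609-122147613 for B2m, by the position of the capitals. The letters CCAAT, the Y box, were in 37.4% of promoters and in those of 6 members, all but Psmb8 and Psmb10 among the 8 with an entry. Both motifs were searched on both strands.
These matches are letters in a window and do not show binding. No member with or without a given motif was called between KO and WT.

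Tap1 and Tap2 encode the 2 chains of the peptide transporter, and Tapbp encodes tapasin. Tap1 (ENSMUSG00000037321) had 416, 450 and 444 CPM in WT and 429, 385 and 457 in KO libraries. Tapbp (ENSMUSG00000024308) had 432, 500 and 545 CPM in WT and 476, 455 and 490 in KO. For both genes the ranges overlapped widely. Tap2 (ENSMUSG00000024339) had 281, 321 and 353 CPM in WT and 268, 252 and 288 in KO. KO1 and KO2 were below all WT libraries, whereas KO3 lay above WT1.
The log2 fold change was -0.24 ± 0.11 (SE) for Tap2 (edgeR adjusted p = 0.797, unadjusted p = 0.0577), with a fold between 0.712 and 1.01 at 95%. It was -0.043 ± 0.096 for Tap1 (edgeR adjusted p = 0.943) and -0.056 ± 0.11 for Tapbp (edgeR adjusted p = 0.93). Each of these genes overlaps a gene on the opposite strand, over 14.1% of exon bases for Tap2, 24.9% for Tapbp and 3.9% for Tap1. The use of strand is not stated, so reads there cannot be assigned. The partners of Tap2 and Tapbp, Gm15821 and Gm19412, had at most 39 and 6 counts per library. The partner of Tap1 is the member Psmb9.

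Psmb8, Psmb9 and Psmb10 encode the catalytic subunits of the immunoproteasome. Psmb10 (ENSMUSG00000031897) had 128, 133 and 136 CPM in WT and 111, 103 and 113 in KO libraries. Psmb8 (ENSMUSG00000024338) had 283, 297 and 317 CPM in WT and 252, 232 and 266 in KO. For both, all KO libraries were below all WT libraries. Psmb9 (ENSMUSG00000096727) had 161, 158 and 167 CPM in WT and 158, 135 and 176 in KO, so its ranges overlapped and KO held both the highest and the lowest value.
The log2 fold change was -0.28 ± 0.077 (SE) for Psmb10 (edgeR adjusted p = 0.625, unadjusted p = 0.00687) and -0.26 ± 0.091 for Psmb8 (edgeR adjusted p = 0.751, unadjusted p = 0.0227). By unadjusted p-value Psmb10 ranked 143 and Psmb8 ranked 394 among 13024 genes. The log2 fold change of Psmb9 was -0.049 ± 0.11 (edgeR adjusted p = 0.939). The 95% interval of the fold was 0.729 to 0.933 for Psmb10, 0.723 to 0.969 for Psmb8 and 0.817 to 1.14 for Psmb9. The differences of Psmb10 and Psmb8 were larger than the SD of either genotype, which was 4.43 and 5.15 CPM for Psmb10 and 17.1 in both genotypes for Psmb8. The same held for Tap2, at 318 ± 36.0 CPM in WT and 270 ± 18.2 in KO, although its ranges overlapped. Psmb8 and Psmb9 each overlap a gene on the opposite strand, over 14.7% and 5.8% of exon bases, while Psmb10 shares no exon base or 31-base word with another gene. For Psmb9 the overlapping gene is the member Tap1.

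Nlrc5 (ENSMUSG00000074151), the transactivator of class I genes, had 372, 442 and 435 CPM in WT and 359, 369 and 488 in KO libraries. KO3 was the highest of the 6 libraries and KO1 the lowest, and its log2 fold change was -0.038 ± 0.14 (edgeR adjusted p = 0.963), with a fold between 0.78 and 1.22 at 95%. Its coefficient of variation in KO libraries was 17.8%, the largest of the 10 genes in that genotype, against 9.23% in WT.

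In all, 0 of 10 genes were called at an adjusted p-value under 0.05, where edgeR called 0.0307% of all genes tested, 0.0154% as lower in KO. DESeq2, which called 0.393% of its genes, and limma voom, which called 0.023%, called 0 of 10 as well. An unadjusted edgeR p-value under 0.05 was reached by 2 members, Psmb8 and Psmb10, both lower in KO. Of all genes 6.25% reached it, 2.11% as lower in KO, and DESeq2 and limma voom gave the same 2 genes. Psmb8 no longer reached it when WT2, WT3, KO1 or KO2 was left out, whereas Psmb10 reached it whichever library was left out. The KO range was wholly below the WT range for the same 2 of 10 genes, and for 5.64% of all genes, while no member had its KO range wholly above (5.83% of all genes). All 10 fitted fold changes were below 0, as were 49.4% of all genes. The median log2 fold change was -0.09 over the 10 genes and 0.003 over all genes. Leaving out 1 library moved the median of the 10 genes to between -0.19, without KO3, and -0.057, without WT3. Most of these genes vary together across libraries, with exceptions for B2m and H2-D1, and the 10 are not independent of each other.

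**Figure D2:**
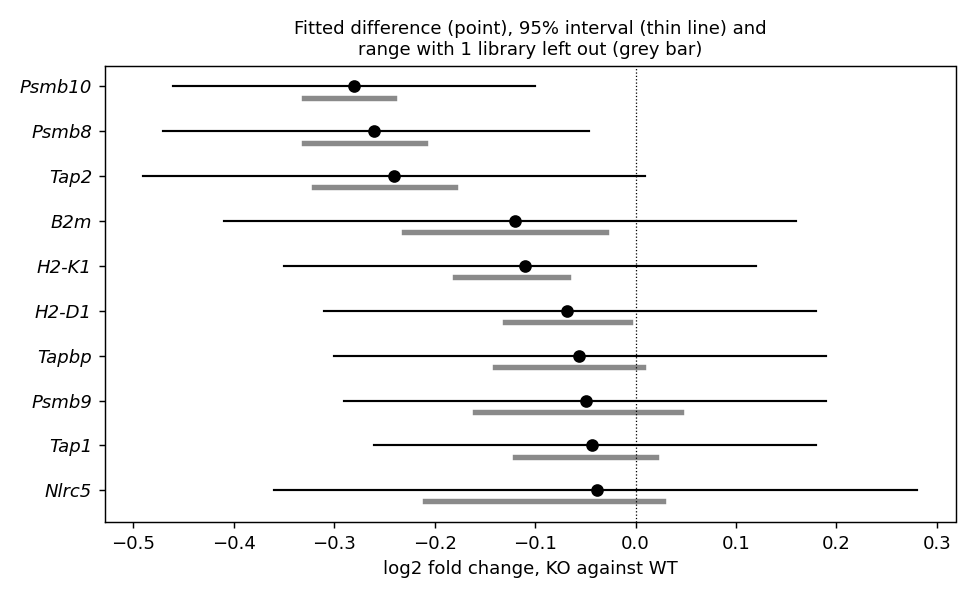
Log2 fold change of KO against WT for each gene (horizontal axis), with the 95% interval of the edgeR fit as a thin line and the range of the fitted value with 1 library left out as a grey bar. Points run from -0.28 for Psmb10 to -0.038 for Nlrc5, and only the intervals of Psmb10 and Psmb8 lie wholly below 0.

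Whether partner genes kept their balance was asked with ratios within a library, which do not depend on its scaling. Of 6 ratios, 2 had KO and WT ranges that did not overlap (11.5% of single genes did not overlap), and none can pass 0.05, since the smallest p of an exact permutation test of 3 against 3 is 0.1. Psmb10 over Psmb7, the constitutive subunit it replaces, was 1.95, 2.0 and 2.14 in WT and 1.78, 1.49 and 1.74 in KO. The log2 ratio was lower by -0.28 in KO, and each KO library lay under the lowest WT library (exact permutation test, two-sided, p = 0.1, adjusted over 6 ratios p = 0.3). Psmb7 itself had 65.3 ± 1.23 CPM (SD, n = 3) in WT and 65.5 ± 3.51 in KO.
Psmb8 over Psmb5 was 5.94, 4.94 and 4.33 in WT and 4.81, 4.68 and 4.91 in KO, with ranges that overlapped (exact permutation test, p = 0.7, adjusted p = 1). The constitutive Psmb5 was 60.3 ± 12.8 CPM in WT and 52.1 ± 2.31 in KO. Psmb9 over Psmb6 was 3.05, 2.63 and 2.67 in WT and 2.89, 2.49 and 2.96 in KO (exact permutation test, p = 1, adjusted p = 1). A lower ratio in all KO libraries was therefore seen for Psmb10 and not for Psmb8 or Psmb9, and the difference between these ratios was not tested.
Tap1 over Tap2 was 1.48, 1.40 and 1.26 in WT and 1.60, 1.53 and 1.58 in KO, higher in every KO library (exact permutation test, p = 0.1, adjusted p = 0.3). H2-K1 over H2-D1 was 1.37, 1.39 and 1.33 in WT and 1.29, 1.27 and 1.41 in KO (exact permutation test, p = 0.4, adjusted p = 0.8). B2m over the sum of both heavy chains was 0.379, 0.299 and 0.248 in WT and 0.285, 0.275 and 0.334 in KO (exact permutation test, p = 0.9, adjusted p = 1). The ratio of B2m to heavy chains varied more within WT than between the genotype means, which were 0.309 and 0.298.

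**Figure D3:**
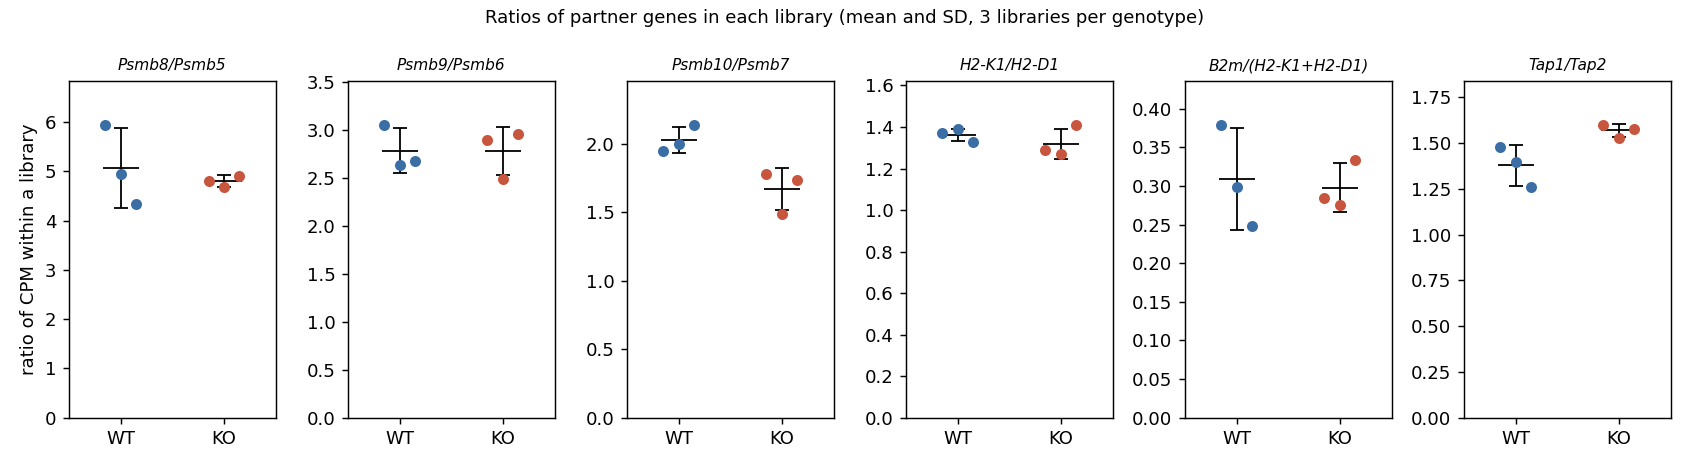
Ratio of CPM between partner genes in each library (vertical axes from 0), with the mean and SD of the 3 libraries of each genotype. The KO points lie wholly below the WT points for Psmb10/Psmb7 and wholly above them for Tap1/Tap2, and overlap them for the other 4 ratios.

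Libraries of the same genotype differed as much as the genotypes did for most of these genes. KO2 was the lowest library for 6 of the 10 genes, and WT3 was the highest for 6. The same libraries were the extremes of the erythroid markers, whose sum over 8 genes was 2714 CPM in KO2 and 247 in WT3, with 857, 569, 445 and 852 in WT1, WT2, KO1 and KO3. All 8 fitted erythroid fold changes were above 0 and none was called, with a median log2 fold change of 1.12. No marker of any other list was called either. Of the 8 T cell markers, 1 (Cd5) was lower at an unadjusted edgeR p-value under 0.05, against 2.11% of all genes. The median log2 fold change of these 8 was -0.31, with 7 below 0. It was -0.39 for the 2 CD8 coreceptor genes and -0.22 for the 4 plasmacytoid dendritic cell markers tested, all below 0. It was 0.4 for the 2 CD4 T cell markers and 0.24 for the 6 class II presentation genes, with none below 0. It was 0.29 for the 9 B cell markers and 0.66 for the 6 neutrophil markers, with none below 0 in either list. For the 10 monocyte or macrophage markers it was 0.82, with 4 (Adgre1, Csf1r, Vcam1 and C1qb) higher at an unadjusted edgeR p-value under 0.05, against 4.14% of all genes. In that list 1 fold change was below 0, at -0.24, and the KO and WT ranges overlapped for all 10 markers. For the 9 conventional dendritic cell markers it was 0.33, with 3 (Zbtb46, Flt3 and Xcr1) higher at that level and 2 KO ranges wholly above WT, against 5.83% of all genes. In that list 2 fold changes were below 0, the lowest at -0.19. Without KO2, 7 of the 10 members were below 0 and their median was -0.085. The mean of the 10 centered log2 levels was -0.15 in KO2, -0.08 in KO1, -0.017 in WT1, 0.037 in KO3, 0.076 in WT2 and 0.13 in WT3. KO3 therefore stood between WT1 and WT2. WT1, KO1 and KO2, the libraries with the lower values, were also those with more B cell and neutrophil and fewer T cell marker counts. The summed 6 neutrophil markers were 790, 884 and 907 CPM in WT1, KO1 and KO2 against 275 to 337 in WT2, WT3 and KO3. The summed 10 monocyte or macrophage markers were 2026, 2290 and 2581 CPM against 1277 to 1358, and no marker of these lists was under 1 CPM in every library. With the mean level of 25 B cell, macrophage and neutrophil markers as a covariate, 6 of 10 fold changes were below 0 instead of 10. Psmb10 was at -0.24 (edgeR adjusted p = 0.647) and Psmb8 at -0.20 (edgeR adjusted p = 0.862). Of the members only Psmb10, and no longer Psmb8, had an unadjusted edgeR p-value under 0.05. In the same fit Tap2 was at -0.14 (edgeR adjusted p = 0.906) and H2-K1 at -0.056 (edgeR adjusted p = 0.967), and the median of the 10 genes was -0.05. The covariate was picked with the values already known, and the part of other cell types in these levels was otherwise not tested.
Of the 45 pairs of members, 41 had a Pearson correlation above 0 over the 6 libraries, with a median of 0.571. The highest were Psmb8 with Psmb10 (0.979) and Tap2 with Psmb8 (0.95), and the divergent neighbors Tap1 and Psmb9 had 0.884. Tap1 and Psmb9 share 212 exon bases on opposite strands, 3.9% of those of Tap1 and 5.8% of those of Psmb9. With the use of strand not stated, reads there could be counted for either gene. B2m ran against H2-D1, with -0.64. These values are descriptions over 6 libraries that differ in their marker sums, and were singled out after they were seen.
The genes most like the mean of the members, among 5951 other genes with a mean log2 CPM of at least 5, were Rpl12, Gars, Lfng, Vrk3 and Idnk, with Pearson correlations between 0.989 and 0.996 over the 6 libraries. Those most like Nlrc5 were Pde7a, Atp6v0a2, Drosha, Snx4 and Plcxd2, between 0.984 and 0.991. These genes were selected for their correlation, which is a description over 6 points with no test.

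**Figure D4:**
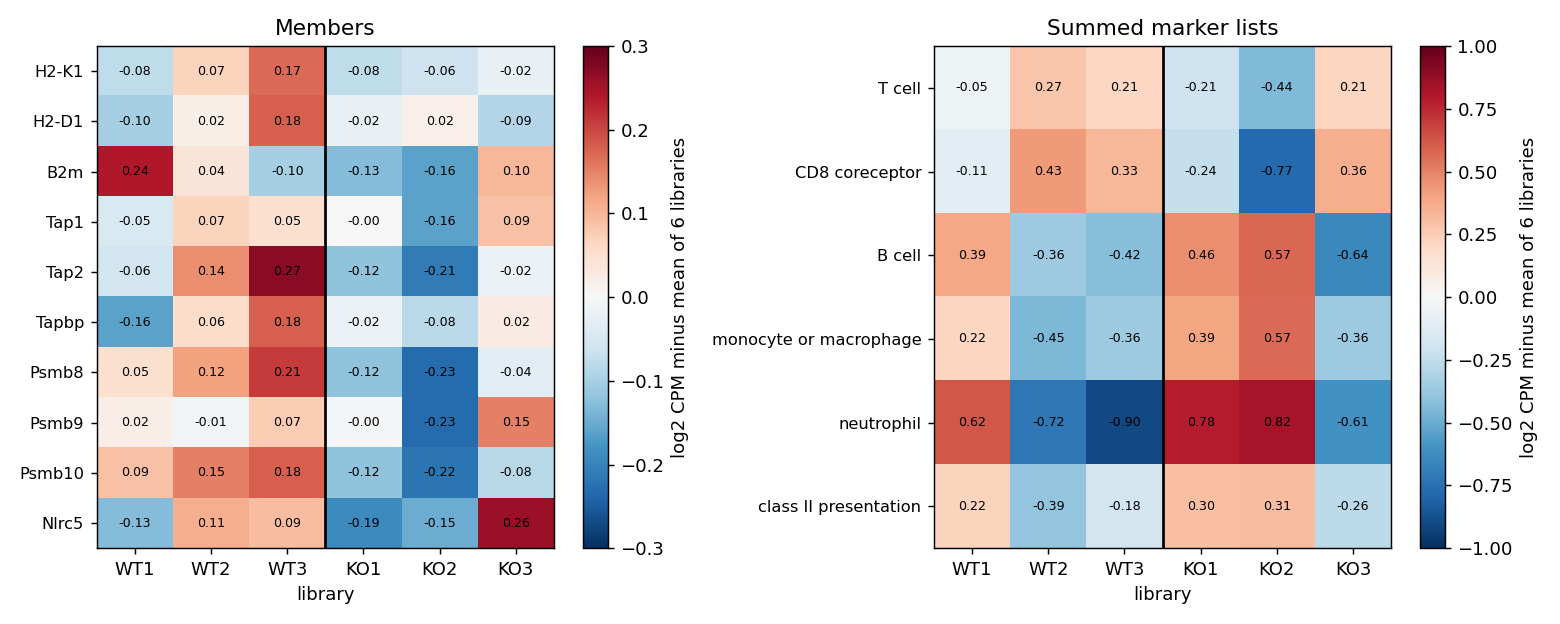
Level in each library relative to the mean of all 6, on the log2 scale, for the 10 genes (left, color from -0.3 to 0.3) and for the summed CPM of 6 marker lists (right, color from -1 to 1). The line separates WT from KO. KO2 has the lowest mean of the 10 genes, -0.15, and WT3 the highest, 0.13, while B cell and neutrophil markers are high in WT1, KO1 and KO2.

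The wider class I pathway was described with 6 lists of 91 genes, of which 85 could be tested. None was called at an adjusted p-value under 0.05. At an unadjusted p-value under 0.05, 1 was lower (Psme1) and 2 were higher (Ezh2 and Irf8), against 2.11% and 4.14% of all genes. The KO range was wholly below the WT range for 8 of the 85 (H2-Q6, Sec62, Ganab, Psme1, Psma6, Nfyb, Rela and Rfxank), against 5.64% of all genes, and wholly above it for 2 (Fcgrt and Ezh2), against 5.83%. Psme1, a subunit of the PA28 activator that is also induced by interferon, had 327, 310 and 337 CPM in WT and 280, 248 and 299 in KO (edgeR log2 fold change -0.24 ± 0.098, adjusted p = 0.786). Its KO range was wholly below its WT range, as for Psmb8 and Psmb10. Its partner Psme2 had 160 ± 7.57 CPM (SD, n = 3) in WT and 148 ± 13.7 in KO, with ranges that overlapped. Ezh2, a histone methyltransferase, had a log2 fold change of 0.32 ± 0.10, and was higher in every KO library than in any WT library. Irf8, a factor of dendritic cells, B cells and macrophages, had 289, 224 and 260 CPM in WT and 392, 385 and 287 in KO, with a log2 fold change of 0.46 ± 0.15 (edgeR adjusted p = 0.712 for both genes). The 3 libraries highest in Irf8, WT1, KO1 and KO2, were those with more B cell, macrophage and neutrophil markers, though KO3 lay just under WT1. The summed 9 conventional dendritic cell markers were 453, 496 and 515 CPM in WT and 503, 474 and 569 in KO. The part of any of these cell types in the level of Irf8 was not tested.
The 14 proteasome core subunits had a median log2 fold change of -0.082, with 11 below 0, and the 9 activator and assembly genes had -0.12, with 7 below 0. The 12 ER chaperone and trimming genes had -0.053, with 9 below 0. Among them calreticulin (Calr) was at 492 ± 20.2 CPM in WT and 480 ± 33.4 in KO, calnexin (Canx) at 249 ± 9.39 and 259 ± 10.8, and the peptide-trimming enzyme Erap1 at 123 ± 12.4 and 114 ± 17.7. Pdia3, which joins tapasin in the loading complex, was at 327 ± 12.3 and 322 ± 27.0, and the tapasin homolog Tapbpl at 96.9 ± 9.30 and 89.1 ± 18.4. For these 5 the KO and WT ranges overlapped, while Sec62 and Ganab of the same list had log2 fold changes of -0.13 ± 0.079 and -0.14 ± 0.078.
Of the 20 other class I and class I-like heavy chain genes, 15 could be tested, with a median of -0.047 and 10 below 0. H2-Q7 was at 1886 ± 205 CPM in WT and 1641 ± 220 in KO. H2-Q6 had 803, 797 and 918 CPM in WT and 734, 797 and 750 in KO, where KO2 lay just under the lowest WT library, and its log2 fold change was -0.14 ± 0.097 (edgeR adjusted p = 0.83). H2-Q4 had 754 ± 29.3 and 729 ± 18.4 CPM, H2-T23, which encodes the ligand of CD94/NKG2A, 483 ± 24.9 and 436 ± 20.4, H2-T22 240 ± 9.73 and 217 ± 20.4, and H2-M3 53.2 ± 2.84 and 52.8 ± 3.19. These genes belong to a multigene family of similar members, so the division of reads between them is uncertain.
The 28 regulators had a median of 0.017, with 13 below 0. Irf1, which acts on class I and immunoproteasome promoters, had 271, 263 and 299 CPM in WT and 228, 232 and 274 in KO (edgeR log2 fold change -0.18 ± 0.10, adjusted p = 0.816). Rfx5, which binds the X box, had 62.5 ± 4.61 CPM in WT and 66.5 ± 9.35 in KO. Ciita, the class II transactivator, had 175, 131 and 117 CPM in WT and 227, 200 and 129 in KO (edgeR log2 fold change 0.39 ± 0.22, adjusted p = 0.816), high in the 3 libraries with more B cell markers. The 25 interferon-stimulated genes had a median of -0.015, with 13 below 0. Among them 1, the chemokine gene Cxcl9, reached an unadjusted edgeR p-value under 0.05, with a log2 fold change of 0.65 ± 0.27, against 6.25% of all genes and 4.14% as higher in KO. The 7 cytosolic peptidases tested had a median of 0.063.

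**Figure D5:**
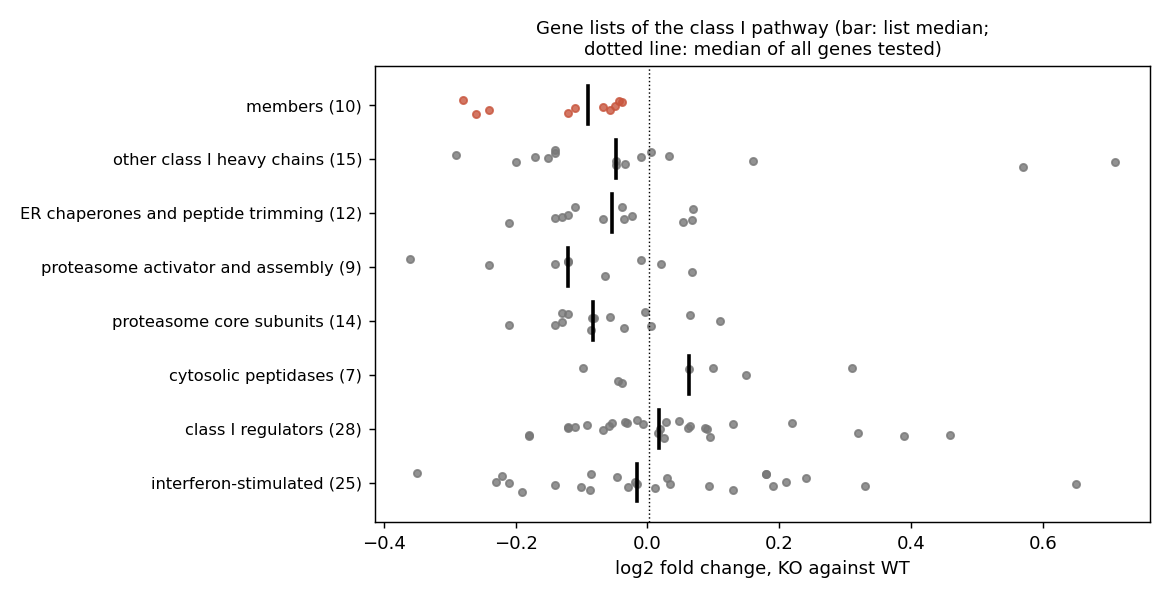
Log2 fold change of KO against WT (horizontal axis) for each tested gene of the members and of 7 other lists, with the number tested in brackets. Bars are list medians, from -0.12 for activator and assembly genes to 0.063 for cytosolic peptidases, and the dotted line is the median of all genes, 0.003.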

How the data were processed

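RNA-seq of CD8a+ spleen leukocytes was analysed from 3 WT and 3 KO libraries, grouped by title. Library preparation used a SMARTER kit per the labels. For each Ensembl identifier the authors deposited an expected count, an estimate of reads that may hold decimals, with no scaling that the values show. The labels name GRCm38 (mm10). The aligner, counting program, annotation release and use of strand are not given in the sources used here. Symbols, positions and transcripts came from GENCODE M21, which held 44121 of 44678 identifiers, and 1 listed gene was not matched.

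Expected counts were rounded. KO was compared with WT in R 4.3.3 by the quasi-likelihood test of edgeR 4.0.16 on 13024 genes, with TMM factors, filterByExpr (count 10, total 15) and Benjamini-Hochberg adjustment at 0.05. Alternatives were DESeq2 1.42.0, limma 3.58.1 voom, other factors and filters, the replicate block and each library left out. Ratios of CPM were compared by exact permutation tests. The fit was tested on simulated counts, where no changed gene differed by less than 1 log2 unit. How often it would call differences as small as those of the members was not tested. The members, gene lists, motifs and alternatives were chosen with earlier results of these data known. The genes named are the members, the constitutive subunits, a set of regulators, partners and other heavy chains, Cd8a, listed genes with an adjusted p under 0.05 (0 found) and the 5 genes most like the members and Nlrc5. Of these, 1 gene is not reported here. Ezh2, Irf8, Cxcl9, Cd3e, Sec62, Ganab, Psma6, Nfyb, Rela, Rfxank, Fcgrt and the cell type markers fall outside this rule and were named after their values were seen.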

Additional observations from a re-analysis of the deposited data

How the results depend on the processing

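No member was called in any of the 14 alternatives. The number of genes called, 4 in the main comparison, was 55 with DESeq2, 12 without a filter on low counts, 9 with the replicate block and 10 with the marker covariate, which was chosen after the data were seen. It ran from 2 to 94 with 1 library left out, the highest without KO replicate 3 and the lowest without WT replicate 1 or WT replicate 3. At an unadjusted edgeR p-value under 0.05, Tap2 joined Psmb8 and Psmb10 without WT replicate 1, without KO replicate 3 and without a filter, and Psmb10 was the only member in the fits that left out 1 of the other 4 libraries and in that with the marker covariate. Psmb10 ran from -0.33 to -0.24, Psmb8 from -0.33 to -0.21 and Tap2 from -0.32 to -0.18 on the log2 scale with 1 library left out. H2-K1 then ran from -0.18 to -0.067, H2-D1 from -0.13 to -0.0059 and B2m from -0.23 to -0.029. With the marker covariate, Tap1 reversed to 0.018, Tapbp to 0.024, Psmb9 to 0.017 and Nlrc5 to 0.10. With 1 library left out, Tap1 ran from -0.12 to 0.02, Tapbp from -0.14 to 0.0074, Psmb9 from -0.16 to 0.045 and Nlrc5 from -0.21 to 0.027. The log2 ratios then ran from -0.17 to 0.053 for Psmb8/Psmb5, from -0.051 to 0.074 for Psmb9/Psmb6, from -0.33 to -0.21 for Psmb10/Psmb7, from -0.18 to 0.12 for B2m over heavy chains, from -0.088 to -0.016 for H2-K1/H2-D1 and from 0.13 to 0.24 for Tap1/Tap2. The cause of these reversals was not tested.

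Same-numbered libraries come from different mice, and their deviations had correlations across genes of -0.0101, -0.199 and 0.111, so the numbers were not taken as pairs. The replicate block changed no call of a member, with log2 fold changes of -0.28 for Psmb10 and -0.26 for Psmb8. Each member had at least 859 counts in every library.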
